A study of Homo sapiens with 2 samples.

Results

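SMARCA4 (BRG1) occupancy on chromosome 10 was examined outside promoters, using the regions whose ChIP-seq signal differed between parental TOV21G cells and an EIR clone, a clone with acquired resistance to an EZH2 inhibitor. A region was included when it lay on chromosome 10 in either deposited list and its nearest edge was more than 1 kb from the transcription start site (TSS) of any transcript. These criteria selected 1243 of the 12896 regions of both lists. Of these, 851 had more SMARCA4 ChIP-seq signal, scaled for library size, in parental cells (parental-higher) and 392 had more in the EIR clone (EIR-higher). The closest region included lay 1001 bp from a TSS and the closest one left out lay 999 bp from a TSS. On either side of the limit the mix was similar, with 47 parental-higher and 19 EIR-higher regions between 1000 and 1500 bp and 49 and 17 between 500 and 1000 bp.

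Both libraries came from TOV21G, a cell line of ovarian clear cell carcinoma with mutated *ARID1A*, in which the endogenous SMARCA4 locus carried a FLAG epitope introduced with CRISPR, and both were precipitated with an anti-Flag antibody. The EIR cells were clone 3, picked after culture of TOV21G cells in the EZH2 inhibitor GSK126 at concentrations raised from 5 to 20 μM, whereas parental cells were not selected in the drug. There was 1 library per condition and the resistant state was represented by 1 clone, so no spread between replicates or clones could be measured. Every interval and *P* value below compares these 2 libraries. Intervals of folds and *P* values cover counting error of tags only. Intervals of shares take the listed regions as independent draws, although regions are not replicates, so they describe these lists and not the conditions. The parental library held 25.6 M tags and the EIR library 35.0 M tags (M, 1e+06), and the authors scaled the latter down so that 1 EIR tag counted as 0.733. Here tags are aligned reads in a region, scaled tags are EIR tags on the parental scale, and the fold is the tags of the higher library over those of the lower library after scaling. The paper reports lower SMARCA4 mRNA and protein in EIR cells and an overall decrease in its binding. Tags scaled to equal library totals cannot show a change in total occupancy, so EIR-higher means more tags relative to the library total. No input library was analysed here, so a difference in DNA copy number between the clone and parental cells cannot be told apart from a difference in SMARCA4 occupancy.

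SMARCA4 is a catalytic ATPase of the SWI/SNF complex, which slides or evicts nucleosomes and thereby opens DNA to transcription factors. ARID1A is a DNA-binding subunit of the same complex, and SWI/SNF that contains it is found at distal regulatory elements such as enhancers as well as at promoters. The paper states, however, that *ARID1A* mutation in such carcinomas typically leads to loss of the protein. The SMARCA4 mapped in TOV21G is therefore not taken to be in complexes with ARID1A. Non-promoter regions can include candidate enhancers, but occupancy alone does not identify the gene on which an element acts. The genes named here are the genes that hold a region or whose TSS lies nearest to it.

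To show the DNA behind the largest differences, the central 200 bases of the region with the largest fold in each direction are printed for each arm, on the plus strand of hg19 (GRCh37). A further 4 come from regions among those with the most tags of their direction and arm. Capitals mark matches to 5 motifs that were searched (given with the motif results), or, in the last sequence, the pentamer GGAAT.

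Short arm, parental-higher, chr10:23902318-23902517, upstream of *KIAA1217*: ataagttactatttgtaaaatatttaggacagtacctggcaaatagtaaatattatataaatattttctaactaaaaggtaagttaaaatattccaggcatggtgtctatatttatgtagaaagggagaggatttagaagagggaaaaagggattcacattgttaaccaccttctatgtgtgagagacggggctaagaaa
Short arm, EIR-higher, chr10:2651751-2651950, between *ADARB2* and *PFKP*: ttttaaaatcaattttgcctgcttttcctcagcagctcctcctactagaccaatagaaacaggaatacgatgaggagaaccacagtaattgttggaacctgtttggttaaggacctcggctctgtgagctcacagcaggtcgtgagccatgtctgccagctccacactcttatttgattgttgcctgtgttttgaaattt
Long arm, parental-higher, chr10:75734235-75734434, between *PLAU* and *VCL*: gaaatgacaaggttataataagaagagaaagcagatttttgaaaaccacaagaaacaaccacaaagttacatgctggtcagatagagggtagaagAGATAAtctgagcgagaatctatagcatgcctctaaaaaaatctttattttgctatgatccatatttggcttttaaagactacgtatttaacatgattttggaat
Long arm, EIR-higher, chr10:112588916-112589115, in an intron of *RBM20*: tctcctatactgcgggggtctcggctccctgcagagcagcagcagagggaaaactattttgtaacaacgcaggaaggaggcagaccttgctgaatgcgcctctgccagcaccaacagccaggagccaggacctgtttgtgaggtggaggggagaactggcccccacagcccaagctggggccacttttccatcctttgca
Short arm, parental-higher, chr10:3806851-3807050, between *PITRM1* and *KLF6*: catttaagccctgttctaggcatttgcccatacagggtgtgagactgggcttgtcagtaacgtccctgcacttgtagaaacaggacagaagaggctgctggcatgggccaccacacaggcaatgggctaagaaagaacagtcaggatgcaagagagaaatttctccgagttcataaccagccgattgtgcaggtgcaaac
Short arm, EIR-higher, chr10:24299696-24299895, in an intron of *KIAA1217*: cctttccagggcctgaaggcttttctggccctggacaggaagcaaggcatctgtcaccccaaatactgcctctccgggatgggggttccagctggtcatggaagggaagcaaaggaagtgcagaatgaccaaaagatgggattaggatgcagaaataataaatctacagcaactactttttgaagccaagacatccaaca
Long arm, parental-higher, chr10:88471207-88471406, in an intron of *LDB3*: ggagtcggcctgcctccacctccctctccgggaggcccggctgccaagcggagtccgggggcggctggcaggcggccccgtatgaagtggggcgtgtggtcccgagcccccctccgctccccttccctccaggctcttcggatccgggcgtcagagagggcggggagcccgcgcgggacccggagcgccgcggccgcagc
Long arm, EIR-higher, chr10:42387652-42387851, beside the centromere gap: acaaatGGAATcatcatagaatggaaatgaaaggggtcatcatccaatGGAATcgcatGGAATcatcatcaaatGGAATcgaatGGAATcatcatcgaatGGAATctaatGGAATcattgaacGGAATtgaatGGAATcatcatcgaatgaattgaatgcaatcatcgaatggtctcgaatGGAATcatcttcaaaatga

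These sequences were unlike each other in base composition. The 200 bases between *PLAU* and *VCL* had a GC content of 32.5% and held 1 AGATAA match, whereas those in *LDB3* had a GC content of 77.5% and those in *RBM20* 58.5%. The sequence beside the centromere gap held GGAAT 10 times.

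Chromosome 10 carried more differential non-promoter regions per Mb than any other chromosome. It had 9.17 per Mb, compared with 0.337 to 3.33 per Mb (median 1.98) on the 23 other chromosomes, where chromosome 17 was highest. The excess was present in both directions. Parental-higher regions numbered 6.28 per Mb, compared with at most 2.70 per Mb elsewhere, and EIR-higher regions numbered 2.89 per Mb, compared with at most 1.10 per Mb elsewhere, on chromosome 21. Regions within 1 kb of a TSS did not show the same rank, since their 2.93 per Mb placed chromosome 10 at rank 5 of 24, below chromosome 19 with 4.62 per Mb. They were still denser than the median of the other chromosomes (1.73 per Mb), and by EIR-higher promoter regions alone chromosome 10 ranked 3 of 24. Densities per Mb do not allow for the number of genes on a chromosome, so the ranks do not show that the excess is particular to non-promoter regions. Why chromosome 10 held so many non-promoter regions was not tested.

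**Figure D1:**
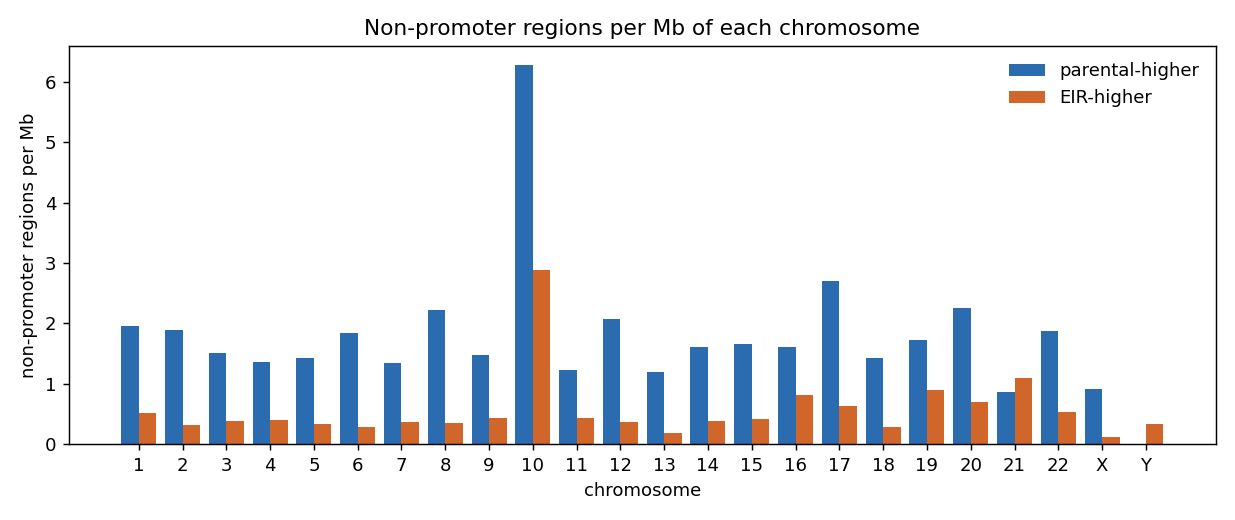
Parental-higher (blue) and EIR-higher (orange) non-promoter regions per Mb (y axis) on each chromosome (x axis). Chromosome 10 stands above the other chromosomes in both directions, with 6.28 parental-higher and 2.89 EIR-higher regions per Mb.

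The balance of directions also differed from that of the other chromosomes. On chromosome 10, 392 of 1243 non-promoter regions, or 31.5% (95% Wilson interval 29.0 to 34.2), were EIR-higher, against a background of 20.4% (19.4 to 21.5) over the 5962 non-promoter regions of the other chromosomes. The share was 26.7% (23.01 to 30.7) on the short arm, where 136 of 510 regions were EIR-higher, and 34.9% (31.6 to 38.4) on the long arm, where 256 of 733 were. The interval of each arm lay above the background. The intervals of both arms did not overlap over all regions, but they overlapped without the 18 regions within 1 Mb of the centromere gap (22.9 to 30.5 and 30.2 to 37.1). Chromosome 10 ranked 5 of 24 by this share, below chromosomes 16 (33.3%), 19 (34.2%), 21 (55.8%) and Y (100%). Wilson intervals treat regions as independent draws, although neighbouring regions came from the same libraries and often shared a direction. Among the 397 chromosome 10 regions within 1 kb of a TSS the EIR-higher share was 13.1% (10.1 to 16.8), compared with 8.37% (7.65 to 9.14) at the promoters of the other chromosomes. The split depends on the scaling of the libraries. When the EIR library was scaled up 1.5 times, the EIR-higher share of the regions that still passed was 79.5% on the short arm and 81.8% on the long arm, and when it was scaled down 1.5 times the shares were 11.2% and 12.5%, respectively. Only listed regions were tested again, each in its own direction. Scaling up thus removed only parental-higher regions and scaling down only EIR-higher ones, and new calls at these scales could give other shares.

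Tag numbers in most regions were low. Parental-higher regions had a median of 22 parental tags on both arms (lowest 15 on the short and 16 on the long arm) against a median of 7.30 scaled EIR tags. EIR-higher regions had a median of 18.3 scaled EIR tags, or 25 EIR tags, against a median of 5 parental tags. The median fold of parental-higher regions was 2.89 on the short arm and 3.03 on the long arm, compared with 3.07 on the other chromosomes. That of EIR-higher regions was 3.67 on the short arm and 3.52 on the long arm, compared with 3.57 elsewhere. Thus the regions were more numerous on chromosome 10, but their median folds were not larger than elsewhere, except for EIR-higher regions of the short arm.

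A fold of at least 4 was reached by 50 of the 374 parental-higher regions of the short arm and by 58 of the 477 of the long arm, that is 13.4% and 12.2%, against a background of 15.6% on the other chromosomes. For EIR-higher regions the counts were 55 of 136 (40.4%) and 82 of 256 (32.0%), against a background of 39.3%. All 1243 regions passed an exact binomial test of their tags (Benjamini-Hochberg adjusted *P* under 0.05), as did all 12896 regions of the lists, which were deposited because they differed.

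**Figure D2:**
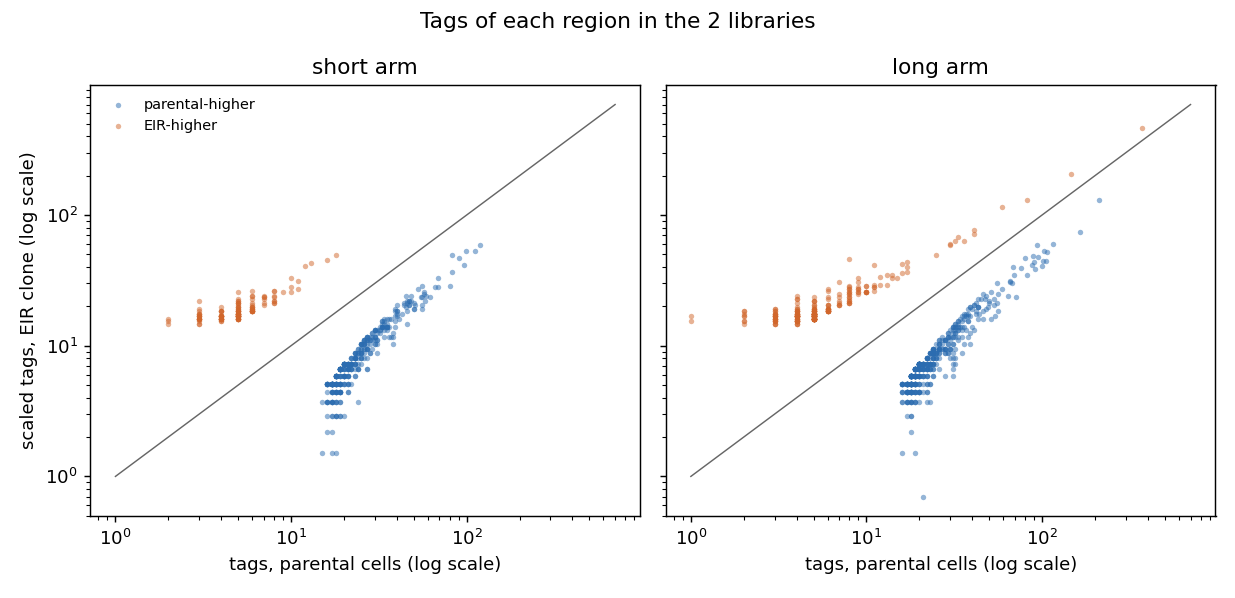
Parental tags (x axis, log scale) against scaled EIR tags (y axis, log scale) of each non-promoter region of chromosome 10, by arm, with parental-higher regions in blue and EIR-higher regions in orange, and a grey line where both are equal. Most points lie near the lowest tag numbers of their list, with medians of 22 parental tags and 18.3 scaled EIR tags, and the few points beyond 200 tags lie on the long arm.

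On the short arm, 510 regions were spread over 39.0 sequenced Mb, or 13.1 per Mb, and they formed long stretches of a shared direction. Consecutive 1 Mb windows with at least 5 regions, of which at least 80% shared a direction, were joined into stretches, a description set after the data were seen. Such parental-higher stretches covered 14 Mb of the short arm and held 285 parental-higher and 15 EIR-higher regions. The EIR-higher ones covered 2 Mb and held 29 EIR-higher and 3 parental-higher regions.

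From the short-arm end inwards, the first stretch lay between 3 and 5 Mb, where 54 of 55 regions were parental-higher around *PFKP*, a phosphofructokinase of glycolysis, and *KLF6*, a zinc finger transcription factor. The window between 14 and 15 Mb was mixed, with 13 parental-higher and 16 EIR-higher regions. Between 21 and 24 Mb, 72 of 74 regions were parental-higher, and their summed tags were 1969 in parental cells and 752 scaled tags in the EIR clone. In the next window, between 24 and 25 Mb, 20 of 21 regions were EIR-higher, and the summed tags were 157 in parental cells and 458 scaled tags in the clone. The direction therefore switched from one window to the next near the start of *KIAA1217*.

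A smaller EIR-higher stretch lay between 28 and 29 Mb, with 9 of 11 regions, some of them in *MPP7*, which encodes a scaffold protein of cell junctions. The longest stretch of the chromosome followed between 31 and 37 Mb, where 146 of 155 regions were parental-higher and parental tags exceeded scaled EIR tags 2.59-fold in sum (3785 and 1463 tags). It held *ITGB1*, the integrin β1 chain, *NRP1*, a co-receptor for semaphorins and VEGF, and *PARD3*, a scaffold of epithelial polarity. Promoter regions in these 6 Mb were parental-higher in 23 and EIR-higher in 1 instance, where 86.9% of all promoter regions of the chromosome were parental-higher. In the EIR-higher stretches of both arms, by comparison, promoter regions were parental-higher in 22 and EIR-higher in 15 instances.

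On the long arm, 733 regions were spread over 92.3 sequenced Mb, or 7.94 per Mb, and no stretch of 1 direction exceeded 3 Mb. Parental-higher stretches covered 21 Mb with 307 parental-higher and 23 EIR-higher regions. The EIR-higher ones covered 9 Mb with 83 EIR-higher and 11 parental-higher regions. The arm opened with EIR-higher regions, 41 of the 45 between 42 and 45 Mb, which include the regions beside the centromere gap and those around *RET*, a receptor tyrosine kinase, and *CXCL12*, a chemokine. Between 47 and 48 Mb 9 of 11 regions, and between 50 and 51 Mb 7 of 8 regions, were EIR-higher as well. A region of the former window lay in *NPY4R* and *NPY4R2*, which are annotated at the same coordinates. Whether reads in that window had a unique position was not examined.

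Parental-higher regions then prevailed. Between 60 and 61 Mb, 43 of 44 regions were parental-higher, the most regions in any 1 Mb window of the chromosome, and parental tags exceeded scaled EIR tags 2.50-fold in sum (1543 and 618 tags). Between 63 and 64 Mb 18 of 19 regions and between 65 and 66 Mb 12 of 12 regions were parental-higher, the former around *ARID5B* and the latter around *JMJD1C*, both of them chromatin regulators. Between 72 and 73 Mb 10 of 12 regions were EIR-higher, and between 74 and 77 Mb 62 of 67 were parental-higher. Between 87 and 88 Mb, all 7 regions, 5 of them inside the glutamate receptor gene *GRID1*, were EIR-higher, with 35 parental tags and 131 scaled EIR tags in sum. Between 103 and 106 Mb 36 of 40 regions were parental-higher.

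Towards the long-arm end regions became sparse. Between 110 and 125 Mb the 5 Mb windows held 15, 9 and 15 regions, most of them parental-higher (14, 8 and 11, respectively). Between 125 and 130 Mb 5 of 7, and between 130 and 135 Mb 11 of 14, were EIR-higher. These last windows had a median GC content of 52.7% and 58.8%, the highest of the full 5 Mb windows.

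**Figure D3:**
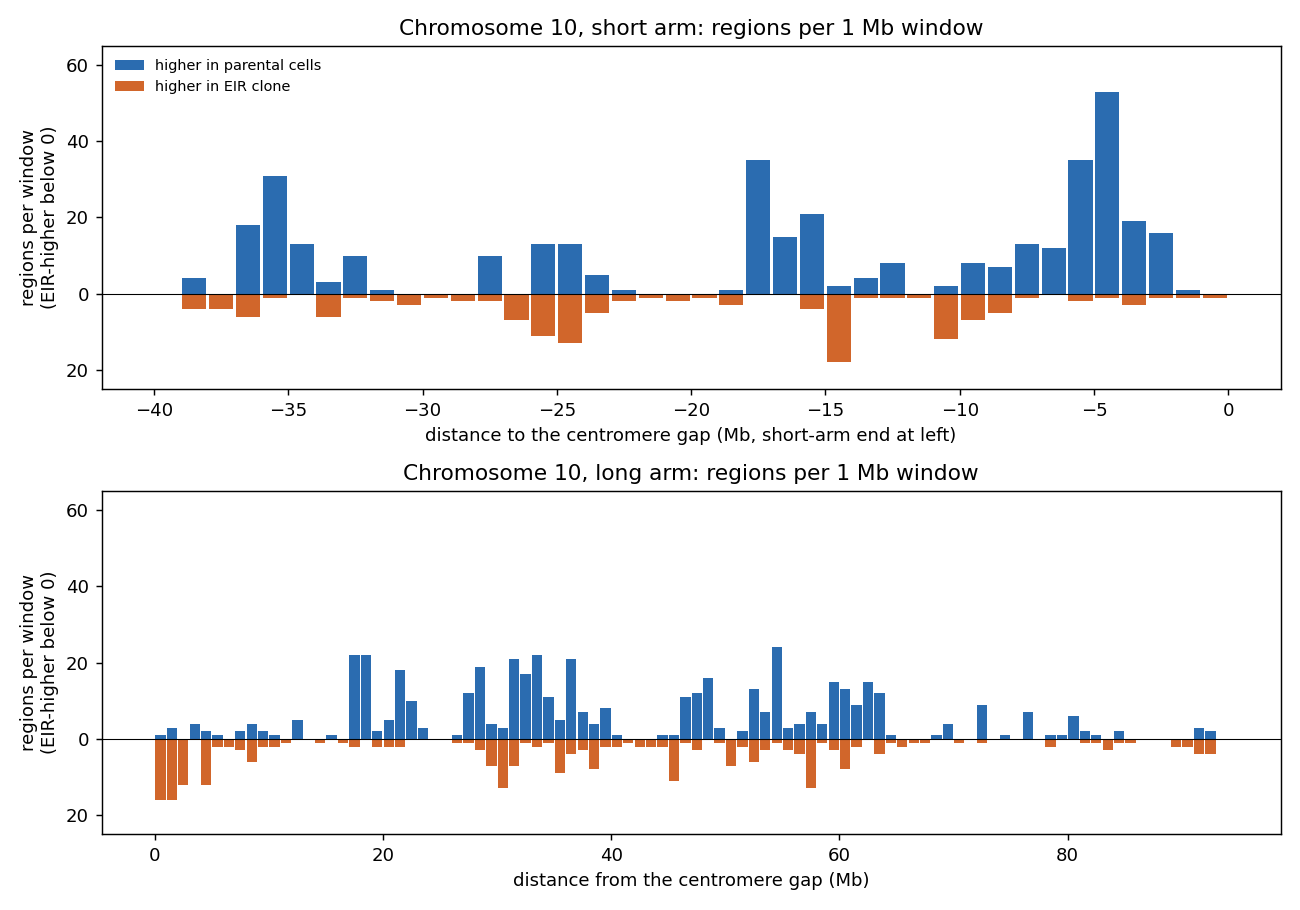
Non-promoter regions per 1 Mb window on the short arm (top) and the long arm (bottom), with parental-higher regions above 0 and EIR-higher regions below 0, against the distance from the centromere gap in Mb (windows are counted from the gap, so they are not the windows of the text). Parental-higher regions stand in tall groups with few EIR-higher regions beneath them, and EIR-higher regions open the long arm.

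Over the chromosome, 121 of 136 windows of 1 Mb held a region, with a median of 6. The 18 windows with at least 20 regions held 520 regions, or 41.8% of all. In the 63 windows in which parental-higher regions were the more numerous, promoter regions were parental-higher in 229 and EIR-higher in 23 instances, an EIR-higher share of 9.13%. In the 50 windows in which EIR-higher regions were the more numerous, the promoter regions split 82 to 27, an EIR-higher share of 24.8%. Over all 397 promoter regions of the chromosome the EIR-higher share was 13.1%. Promoter regions were not used to sort the windows, but they came from the same 2 libraries and lists, so the likeness of both splits is not independent evidence.

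Neighbouring regions shared a direction in 78.6% of 1242 pairs, compared with 78.5% on the other chromosomes. By arm the share was 84.1% on the short arm and 74.7% on the long arm. An EIR-higher region was followed by another in 66.1% of instances, compared with 46.9% elsewhere, and the EIR-higher share is itself larger on chromosome 10. Neighbours lay closer together on chromosome 10, with a median gap of 28.6 kb, compared with 69.3 kb elsewhere.

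Some long genes held many regions, although most regions lay outside the 5 fullest genes and some longer genes held few (*CTNNA3*, 1851 kb, 3 regions). Of the 742 protein-coding genes of the chromosome, 224 held a region, and the 5 genes with the most held 155 regions, or 12.5%. In *PARD3* (chr10:34398488-35104253, minus strand, 706 kb) all 47 regions were parental-higher. Their parental tags ranged from 17 to 80 with a median of 26, and their scaled EIR tags from 3.70 to 28.6 with a median of 10.3. In sum, parental tags exceeded scaled EIR tags 2.64-fold (95% interval 2.42 to 2.89). The sums were 1490 parental tags and 769 EIR tags, or 564 scaled EIR tags. Sums here and for the genes below cover listed regions only, and each region was listed because its tags differed. Where all regions shared a direction, the direction of the ratio was therefore set by the selection. The size and interval of such a ratio are not estimates for the whole gene. The region of *PARD3* with the most tags, chr10:35047640-35049020, had 80 parental tags and 28.6 scaled EIR tags. Of its promoter regions, 2 were parental-higher and none was EIR-higher.

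In *BICC1* (chr10:60272632-60591195, plus strand, 319 kb), which encodes an RNA-binding protein, all 31 regions were parental-higher as well. Parental tags ranged from 17 to 115 with a median of 28, and scaled EIR tags from 4.40 to 60.1 with a median of 10.3. Over these listed regions, the sum of parental tags was 2.51-fold (2.28 to 2.77) that of scaled EIR tags. With 9.73 regions per 100 kb, *BICC1* was more densely filled than *PARD3* with 6.66.

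In *KIAA1217* (chr10:23983675-24836777, plus strand, 853 kb) all 19 regions were EIR-higher. Parental tags ranged from 3 to 18 with a median of 5, and scaled EIR tags from 16.1 to 49.1 with a median of 19.1. Over these listed regions, the sum of scaled EIR tags was 3.57-fold (2.93 to 4.39) that of parental tags. Both promoter regions of the gene, which lay at internal starts, were EIR-higher as well. The region with the largest fold inside the gene, chr10:24424117-24424617, had 3 parental tags and 19.1 scaled EIR tags.

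*FRMD4A* (chr10:13685706-14504141, minus strand, 818 kb), which encodes a FERM-domain scaffold of epithelial polarity, held regions of both directions, 12 parental-higher and 22 EIR-higher. Its summed tags were almost equal, 707 parental tags and 695 scaled EIR tags (ratio 1.02, interval 0.922 to 1.12). The directions were arranged along the gene. Its last 150 kb, a limit not set beforehand, held 11 parental-higher and 3 EIR-higher regions, and the rest held 1 parental-higher and 19 EIR-higher regions. *KCNMA1* (chr10:78629359-79398127, minus strand, 769 kb), which encodes the pore of a calcium-activated potassium channel, held 21 parental-higher and 3 EIR-higher regions, and the sum of parental tags was 2.06-fold (1.80 to 2.37) that of scaled EIR tags.

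**Figure D4:**
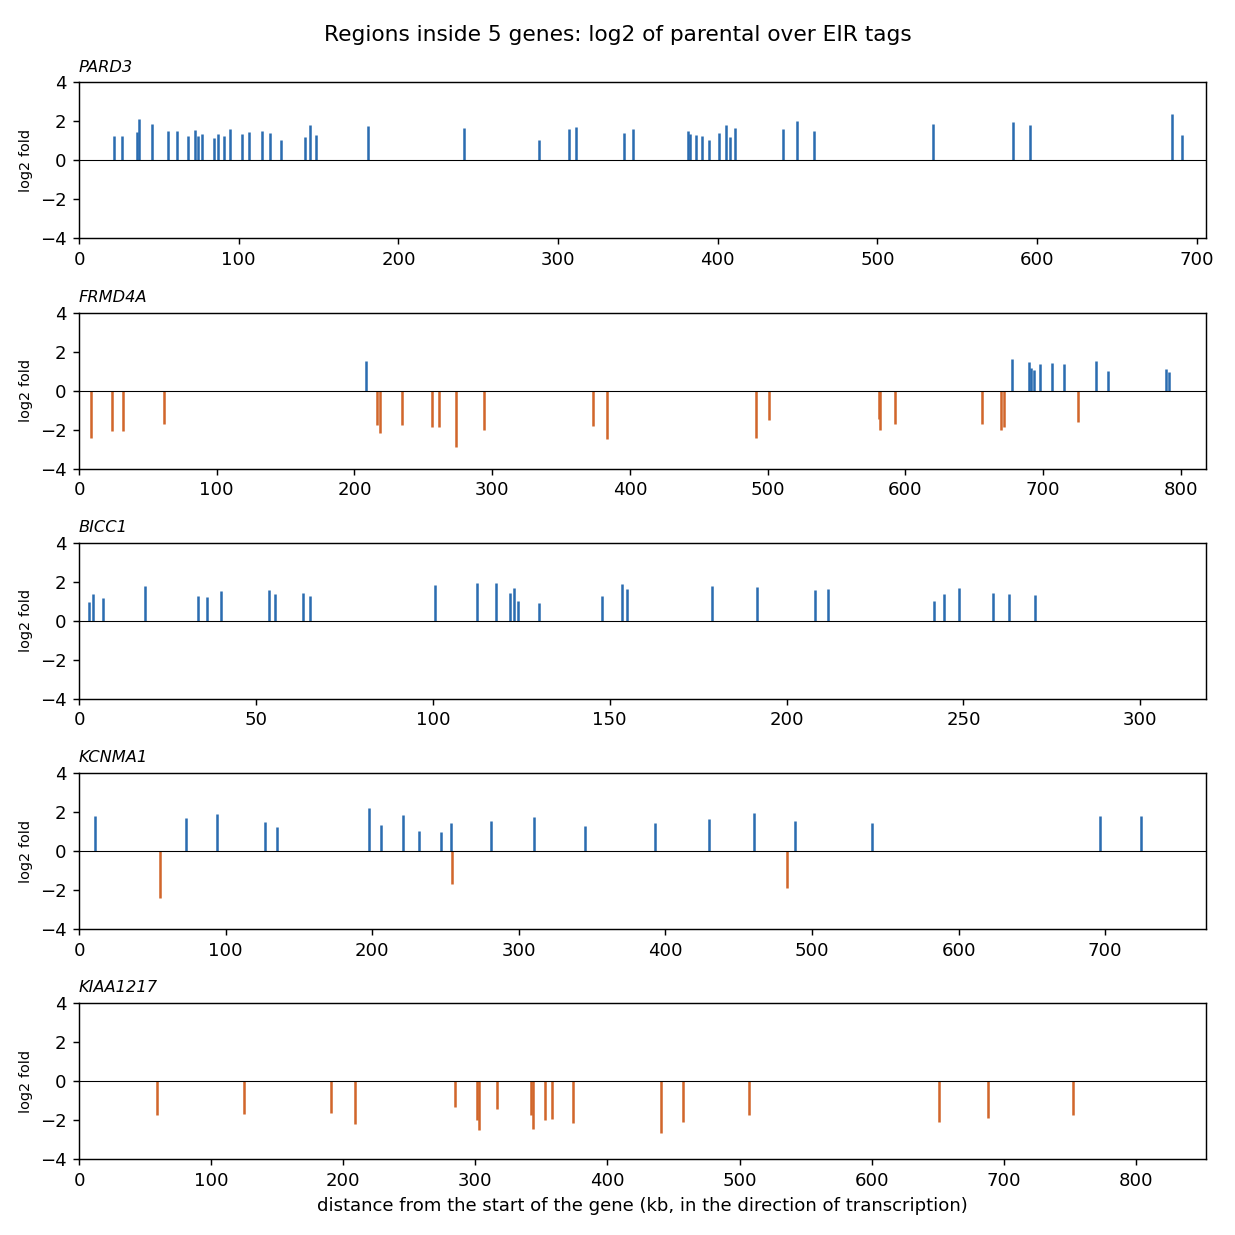
Log2 of parental tags over scaled EIR tags (y axis) of each region inside the 5 genes with the most regions, against the distance from the start of the gene in kb (x axis), with parental-higher regions in blue above 0 and EIR-higher regions in orange below 0. *PARD3* (47 regions) and *BICC1* (31) hold blue lines only, *KIAA1217* (19) orange lines only, and *FRMD4A* both (12 blue and 22 orange).

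Altogether 33 genes held at least 5 regions, of which 13 held parental-higher regions only, 3 EIR-higher regions only and 17 both. Beside *PARD3* and *BICC1*, the 13 included *NEBL*, a nebulin-family actin-binding protein (13 regions, sums of 356 and 131 tags, the latter scaled), *ITGB1* (12 regions, 333 and 122 tags), *JMJD1C* (10 regions, 243 and 81.4 tags) and *VCL*, the focal adhesion protein vinculin (10 regions, 262 and 91.0 tags). The 3 EIR-only genes were *KIAA1217*, *CAMK1D*, a calmodulin-dependent kinase (5 regions, 29 parental and 94 scaled EIR tags), and *MPP7* (5 regions, 27 and 96.1 tags). Of the 13 parental-only genes, 10 had a parental-higher promoter region, none had an EIR-higher one and the rest had no listed promoter region. Counted by region and not by gene, 86.9% of all 397 promoter regions of the chromosome were parental-higher. Of the 3 EIR-only genes, 2 had an EIR-higher and 1 a parental-higher promoter region. *GRID1* and *CDH23*, an atypical cadherin, were mostly EIR-higher, with 9 of 10 and 8 of 9 regions, respectively.

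Runs of regions were defined as at least 3 regions whose neighbours lay within 50 kb. There were 120 runs, which held 785 regions, or 63.2%, and 72 of them had a single direction (55 parental-higher and 17 EIR-higher). Of the 22 runs with at least 10 regions, 21 were mostly parental-higher. The longest, chr10:60173794-60543119, reached from upstream of *BICC1* into the gene and held 39 parental-higher regions and 1 EIR-higher region. The next, chr10:34922831-35143664 at the 5′ side of *PARD3*, held 27 parental-higher regions, and chr10:21561116-21886716, which passes from *NEBL* past *SKIDA1* to *MLLT10*, held 23, neither with an EIR-higher region. A run at *KLF6*, chr10:3760511-3997350, held 13 parental-higher regions with 430 parental and 167 scaled EIR tags in sum. A run at *VCL* and the urokinase gene *PLAU*, chr10:75657895-75855566, held 17 parental-higher regions and 1 EIR-higher region.

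EIR-higher runs were shorter. The largest with that direction only, chr10:24267533-24358245 in *KIAA1217*, held 9 regions with 60 parental and 208 scaled EIR tags in sum, a ratio of 3.46. Other EIR-only runs were 4 regions upstream of *RET* (22 parental and 85.0 scaled EIR tags), 4 regions near *ZMIZ1*, a transcriptional coregulator (25 and 82.9 tags), 4 regions in *CDH23* (33 and 102 tags) and 3 regions near *CXCL12* (11 and 48.4 tags).

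The only run of at least 10 regions that was mostly EIR-higher lay beside the centromere gap, an unsequenced stretch of 3.20 Mb between chr10:39154936 and chr10:42354935. It spanned chr10:42355614-42396689 and held 12 EIR-higher regions and 1 parental-higher region. These regions had many tags but small folds. The region chr10:42387111-42388393 had 371 parental tags and 463 scaled EIR tags (fold 1.25, interval 1.10 to 1.42), the most tags of any region studied here, and chr10:42396189-42396689 had 147 and 207 tags (fold 1.41, 1.15 to 1.73). The parental-higher region, chr10:42384978-42385478, lay between EIR-higher neighbours and had 211 parental tags and 130 scaled EIR tags (fold 1.63, 1.33 to 1.997).

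Within 1 Mb of the gap there were 18 regions, 17 of them EIR-higher, and all 5 EIR-higher regions with at least 100 EIR tags lay there. Their DNA differed from that of the other regions. The pentamer GGAAT (either strand) occurred at a median of 9.78 per 100 bp, compared with 0.200 per 100 bp in the other 1225 regions, where the highest value was 1.20. Repeats of this unit make up satellite DNA beside human centromeres, where short reads cannot be assigned to a unique copy, and how the authors treated such reads is not given in the sources used here. Without these 18 regions, the long arm had an EIR-higher share of 33.5% (30.2 to 37.1) and the short arm 26.5% (22.9 to 30.5), with overlapping intervals.

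The largest parental-higher fold of the chromosome belonged to chr10:75734085-75734585, an intergenic region 20.4 kb upstream of *VCL*. It had 21 tags in parental cells and 1 tag in the EIR clone, a fold of 28.7, but the interval from these few tags reached from 4.61 to 1185. The next on the long arm lay in an intron of *P4HA1*, a collagen prolyl hydroxylase, with 19 parental tags and 2 EIR tags (fold 13.0). On the short arm the largest fold, 12.3 (2.94 to 109), belonged to chr10:23902168-23902668, with 18 parental tags and 2 EIR tags. That region lay 81.0 kb from the nearest coding start, that of *KIAA1217*, whose own regions were all EIR-higher. It was followed by a region in *CCDC7*, 53.5 kb from *ITGB1* (fold 11.6), and an intergenic region 12.8 kb from *OTUD1*, a deubiquitinase gene (fold 10.2).

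Among EIR-higher regions the largest fold, 16.9 (2.74 to 695), belonged to chr10:112588766-112589266 in an intron of *RBM20*, a splicing regulator, with 1 parental tag and 23 EIR tags, 1.24 kb from a TSS. A region 9.46 kb from *HABP2*, which encodes a serine protease of plasma, had 1 parental tag and 21 EIR tags (fold 15.4). The third largest fold, 9.16, was shared by a region beside the centromere gap and chr10:80692345-80692845 near *ZMIZ1*, each with 2 parental and 25 EIR tags. On the short arm, chr10:2651601-2652101, between *ADARB2* and *PFKP*, had 2 parental and 22 EIR tags (fold 8.06, 1.98 to 70.7). A region in *FAM171A1* (fold 7.70) and a region in *JCAD*, which encodes an endothelial junction protein (fold 7.33, 3 parental and 30 EIR tags), came next, the latter level with a region in *FRMD4A* (2 parental and 20 EIR tags). Each of the largest folds therefore rested on no more than 3 tags in the lower library.

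Regions with more tags had narrower intervals and smaller folds. On the short arm the parental-higher region with the most tags, chr10:13756095-13758275 in *FRMD4A*, had 119 parental and 58.6 scaled EIR tags (fold 2.03, 1.52 to 2.73). The next, chr10:3806103-3807799, 14.6 kb from *KLF6*, had 111 and 52.8 tags (fold 2.10, 1.55 to 2.87), and a region in an intron of *PFKP* had 99 and 52.8 tags (fold 1.88, 1.37 to 2.58). EIR-higher regions of that arm with the most tags were chr10:24299064-24300528 in *KIAA1217*, with 18 parental and 49.1 scaled EIR tags (fold 2.73, 1.60 to 4.88), and chr10:1416204-1417456 in *ADARB2*, of the family of RNA-editing enzymes, with 16 and 45.4 tags (fold 2.84, 1.62 to 5.27).

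On the long arm, away from the gap, the parental-higher region with the most tags was chr10:88470735-88471879 in an intron of *LDB3*, which encodes a muscle Z-disc protein. It had 164 parental and 74.0 scaled EIR tags (fold 2.22, 1.72 to 2.87) and was the only region assigned to that gene. It was followed by chr10:60401563-60403523 in *BICC1*, with 115 and 60.1 tags (fold 1.91, 1.43 to 2.57). The lower bound of each of these intervals was above 1, but this was set by the selection, since only regions that differed were listed.

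The position of the regions relative to genes differed between arms. On the short arm the share inside a protein-coding gene was 50% among parental-higher and 63.2% among EIR-higher regions, whereas on the long arm the order was the opposite, with 64.4% and 43.0%, respectively. Exons were touched by few regions, 4.82% and 6.63%, respectively, over both arms. EIR-higher regions were more often remote. More than 50 kb from any TSS lay 18.9% of EIR-higher and 8.23% of parental-higher regions, compared with 11.2% and 6.70% on the other chromosomes. Between 1 and 5 kb from a TSS lay 18.9% of EIR-higher and 27.8% of parental-higher regions, compared with 31.1% and 33.5% elsewhere. EIR-higher regions of chromosome 10 were thus less often close to a TSS than those of the other chromosomes.

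Base composition moved with direction on both arms. The median GC content was 42.5% in parental-higher and 45.3% in EIR-higher regions of the short arm, and 43.3% and 50.2% on the long arm, compared with 43.9% and 50.7% on the other chromosomes. Of the chromosome 10 regions with a GC content under 40%, 11.1% (8.07 to 15.0) were EIR-higher, compared with 6.20% (5.07 to 7.56) elsewhere. Between 40% and 50% the share was 28.8% (25.5 to 32.4), compared with 16.9% (15.5 to 18.3). From 50% upwards it was 61.2% (55.3 to 66.7), compared with 39.3% (37.0 to 41.7). The EIR-higher share was thus larger on chromosome 10 within each class of GC content, with intervals that did not overlap. These intervals, too, treat neighbouring regions as independent and may be too narrow.

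Within these classes the arms differed less than overall. The EIR-higher share was 26.1% on the short and 31.1% on the long arm between 40% and 50% GC, and 57.6% and 62.3% from 50% upwards, with overlapping intervals. Under 40% the order was reversed, with 14.1% (9.41 to 20.6) on the short and 8.38% (5.06 to 13.6) on the long arm, again with overlapping intervals. The part of GC content in the difference between the libraries was not tested.

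**Figure D5:**
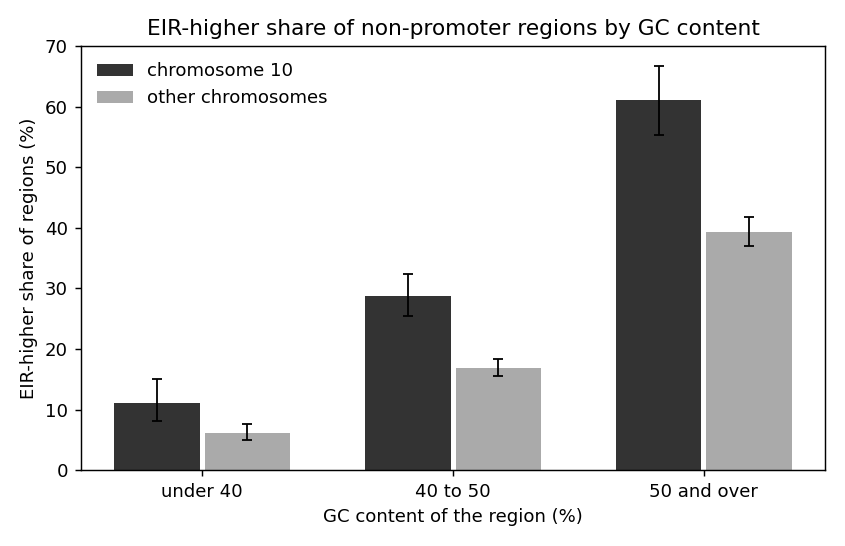
Share of non-promoter regions that were EIR-higher (y axis, %) by GC content of the region (x axis, %), on chromosome 10 (dark) and the other chromosomes (light), with 95% Wilson intervals as bars. The share increases with GC content and is larger on chromosome 10 in every class, from 11.1% against 6.20% to 61.2% against 39.3%.

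Motifs were counted as matches on either strand within the central 500 bp. AGATAA, the core of GATA factor sites, was present in 25.7% of parental-higher and 24.3% of EIR-higher regions of the short arm, and in 28.1% and 15.2% on the long arm, compared with 27.2% and 16.9% on the other chromosomes. GTTAAT, part of the HNF1 site, was present in 18.6% of parental-higher and 12.8% of EIR-higher regions of both arms, compared with 19.1% and 11.2%. TGANTCA, the AP-1 site, was present in 18.2% and 14.5%, compared with 20.6% and 16.6%. AGGGGGC, from the core of the CTCF site, was present in 4.82% and 7.40%, compared with 7.08% and 11.7%. By arm, it was present in 2.94% (1.65 to 5.19) of parental-higher regions of the short arm and 6.29% (4.44 to 8.84) of those of the long arm, and the short-arm interval lay below the 6.39 to 7.85 of the other chromosomes. The AGATAA share among EIR-higher regions of the short arm (interval 17.8 to 32.1) was above the 16.9% (14.9 to 19.1) of the other chromosomes with overlapping intervals.

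CATTCC, the TEAD site, contains the pentamer ATTCC, the other strand of GGAAT. It was present in 24.1% of parental-higher and 28.8% of EIR-higher regions, compared with 27.3% and 30.3% elsewhere. Of the 17 EIR-higher regions within 1 Mb of the gap 16 held it, and without that stretch the share among EIR-higher regions of the long arm was 25% instead of 29.3%. A match is a description of the sequence and does not show that a factor was bound.

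Genes were next grouped by role, using lists of chromosome 10 genes and counting each region for the protein-coding gene that held it or, where no such gene did, for the nearest one. Among all 742 protein-coding genes, 338, or 45.6%, had a region by this count, 164 of them parental-higher only, 92 EIR-higher only and 82 both. Long genes hold more regions, and gene length was not matched. A region counted for a gene could lie far outside it. Only 1 of the 26 regions counted for *KLF6*, 1 of 8 for *BAMBI* and 2 of 23 for *PFKP* lay inside the gene. The same held for 7 of 25 for *NRP1* and 2 of 8 for *PAX2*. None of those counted for *CXCL12*, *RET* or *DDIT4* lay inside these genes. For *ITGB1*, by contrast, all 12 did.

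Among genes of adhesion, cytoskeleton and guidance, 37 of 41 (90.2%) had a region, 13 parental-higher only, 6 EIR-higher only and 18 both. *VCL* had 14 parental-higher regions and no EIR-higher region, and *NRP1* had 23 and 2. *ITGB1* held 12 regions, all parental-higher, and the one with the largest fold had 16 parental and 2.20 scaled EIR tags (fold 7.28). By contrast, *ITGA8*, an integrin α chain, had 3 EIR-higher regions only, and *ANK3*, an ankyrin that links membrane proteins to the cytoskeleton, also had 3. *COL13A1*, a transmembrane collagen gene, had 1 parental-higher and 2 EIR-higher regions, of which one had 2 parental and 16.9 scaled EIR tags (fold 8.43).

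Of 40 genes of growth factor and kinase signalling 28 (70.0%) had a region, 9 parental-higher only, 12 EIR-higher only and 7 both, so EIR-only genes were the more numerous. *CXCL12* had 9 EIR-higher regions and no other, and the one with the largest fold had 2 parental and 16.9 scaled EIR tags (fold 8.43). *BAMBI*, a pseudoreceptor that dampens TGF-β signalling, had 8 EIR-higher regions only, and *RASGEF1A*, an exchange factor for RAS family proteins, had 5. *RET* had 4 EIR-higher regions only, with a largest fold of 6.05 from 4 parental and 24.2 scaled EIR tags. In the other direction, *PIP4K2A*, a phosphoinositide kinase, had 10 parental-higher regions only, and *BMPR1A*, a BMP receptor, and *MAP3K8* had 5 each.

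Of 45 genes of transcription factors and chromatin regulators 23 (51.1%) had a region, 16 parental-higher only, 2 EIR-higher only and 5 both. *KLF6* had 26 parental-higher regions and no other, *ARID5B* 11 and 1, and *JMJD1C* 10 and 0. *PAX2*, a transcription factor of the kidney and Müllerian tract, had 6 parental-higher and 2 EIR-higher regions. *GATA3*, a zinc finger transcription factor, was one of the 2 EIR-only genes by this count, but its 4 regions were intergenic and lay 247 to 1321 kb from its start. Nearer to it, at 32.1 kb, was a parental-higher region inside *TAF3* (16 parental and 3.70 scaled EIR tags), which the rule counts for *TAF3*. *ZMIZ1* had 3 parental-higher and 7 EIR-higher regions.

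Of 33 genes of metabolism and transport 17 (51.5%) had a region, 10 parental-higher only, 4 EIR-higher only and 3 both. *PFKP* had 18 parental-higher and 5 EIR-higher regions, the latter all outside the gene and as far as 456 kb from its start. *PFKFB3*, which sets the level of an activator of glycolysis, had 5 parental-higher regions only. *SCD*, a fatty acid desaturase, and *HK1*, a hexokinase, had 3 parental-higher regions each. *ADK*, adenosine kinase, had 4 parental-higher regions and 1 EIR-higher region, and its largest fold was 8.19 from 18 parental and 2.20 scaled EIR tags. Of 17 genes of cell death and stress 6 (35.3%) had a region, 5 parental-higher only and 1 EIR-higher only. *FAS*, a death receptor, had 5 parental-higher regions with a largest fold of 5.46 from 20 parental and 3.70 scaled EIR tags. *DDIT4*, a stress-induced inhibitor of mTOR signalling, had 6, with 291 parental tags in sum.

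Regions of opposite direction could lie close together. Of 498 pairs of regions within 10 kb of each other, 49 (9.84%) were opposite, 17 on the short and 32 on the long arm, and 5 of these were under 1 kb apart. A parental-higher and an EIR-higher region overlapped near *FGF8*, a fibroblast growth factor gene. Here chr10:103508946-103509446 had 19 parental and 5.90 scaled EIR tags, and chr10:103509440-103509940 had 6 parental and 18.3 scaled EIR tags. In *KCNMA1*, regions 345 bp apart had 20 parental and 7.30 scaled EIR tags, and 6 and 19.1 tags, respectively. Near *ASB13*, regions 480 bp apart had 21 and 4.40 tags, and 5 and 21.3 tags. In each of these pairs the library with more tags changed across a gap of at most 480 bp.

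Other stretches held no region. The widest outside the centromere gap, chr10:127378116-132080582, spanned 4.70 Mb near the long-arm end and 19 protein-coding genes, among them *MKI67*, the gene of the Ki-67 antigen, *MGMT*, a DNA repair gene, and *DOCK1*. It held 6 promoter regions, none EIR-higher. The next, chr10:65850018-69163185, spanned 3.31 Mb around *LRRTM3*, a synaptic gene, with no promoter region either, and chr10:116372871-118516694 spanned 2.14 Mb around *ATRNL1*, the GDNF receptor gene *GFRA1* and the pancreatic lipase gene *PNLIP*, with 3 promoter regions. Regions occupied to a like extent in both libraries are in neither list, so an empty stretch says nothing of whether SMARCA4 was bound there.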

How the data were processed

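FLAG ChIP-seq of SMARCA4 gave 1 library from parental cells and 1 from EIR clone 3. The authors aligned reads to hg19 with Bowtie (version 0.12.9 per the submitters' notes) and ran HOMER with its histone option on either library against the other one, keeping peaks under an FDR limit. In both deposited lists the parental tags of a region are raw counts, whether the parental library was called or served as control. The EIR tags were scaled by the authors to the parental total in both lists, and a normalised signal per 10000000 tags is given too. The deposited fold is the ratio of both, with 0.5 of a tag where the control had none, and the deposited p-value is the Poisson p-value of HOMER. A findPeaks score, a clonal fold and a column headed as region size were not used.

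From these lists, whole EIR tags were recovered from the steps of the scaled values. Of 173 distinct values of at least 5, 99.4% were whole within 0.05 of a tag. Each TSS distance was measured from the closer edge of the region, over all transcripts in GENCODE release 44 mapped to GRCh37. The arms were divided at the longest unsequenced stretch. Folds have exact Clopper-Pearson and shares Wilson intervals at 95%, and tags were tested by an exact two-sided binomial test adjusted over all regions. Summed tags of genes, over listed regions only, were given the same interval as folds, which does not allow for the selection of regions that differed. Statistics were tested on simulated data.

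The members and lists were chosen with earlier results of these data known. Regions named are, per arm and direction, the 3 with the largest fold and the 3 with the most tags of the higher library, then runs, the 5 genes with the most regions, pairs of opposite direction within 10 kb, the 3 widest empty stretches, and genes of role lists with the largest fold. Genes of the lists named for their number of regions, the 1 Mb stretches, and the 150 kb limit in *FRMD4A* were picked after values were seen. Alternatives were a minimum fold or p-value, the binomial test, other scalings, TSS limits of 500 bp and 5 kb, distances counted from region centres, coding TSSs, merged regions, removal of regions near the centromere gap, and 1 tag added to both libraries. With 1 library per condition, leaving out a replicate could not be tried. Software was Python 3.11.15 with scipy 1.17.1, pandas 2.3.3, numpy 2.4.6 and matplotlib 3.10.9.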

Additional observations from a re-analysis of the deposited data

How the results depend on the processing

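The number of regions, the EIR-higher share of each arm and the median folds were recomputed under 13 alternatives. Of 74 values, 53 moved by less than the margin set for them, among them all those with a minimum fold of 2, the exact binomial test, TSS limits of 500 bp and 5 kb, distances counted from region centres, coding TSSs, merged regions, or without regions within 1 Mb of the centromere gap. The binomial test removed no region, since only regions that differed are listed. A minimum fold of 4 left 108 parental-higher and 137 EIR-higher regions, an EIR-higher share of 52.4% on the short and 58.6% on the long arm, and median folds of 4.595 and 4.69. A p-value of at most 1e-06 left 253 and 124 regions with median folds of 3.51 and 4.76. With the EIR library scaled up 1.5 times, 92 parental-higher regions were left, the EIR-higher shares were 79.5% and 81.8%, and the median fold of EIR-higher regions was 5.28. With it scaled down, 115 EIR-higher regions were left, the shares were 11.2% and 12.5%, and the median folds were 4.50 (parental-higher) and 3.18 (EIR-higher). Both scalings tested only the listed regions, each in its own direction. Adding 1 tag to both libraries gave median folds of 2.85 and 3.05. The long arm had the larger EIR-higher share under each of the alternatives that gave one.

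No paired analysis was possible because there was 1 library per condition. Parental-higher regions had a median of 22 parental tags against 7.30 scaled EIR tags, so the fold of a single region is known only within a wide counting interval.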
